A study of Mus musculus with 4 samples.

Results

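The chemokine receptors and related homing receptors of pancreatic ILC2 are described here, as a set of 10 named genes (Ccr2, Ccr4, Ccr7, Ccr8, Ccr9, Cxcr3, Cxcr4, Cxcr6, Cx3cr1 and Gpr183). Members were found by gene symbol in the row names of the deposited count table, where 9 of the 10 had a row among 11352 gene rows. Ccr7, the receptor that guides cells into lymphatics and lymph nodes, had none and is not analysed here. Of the 9, 8 reached 16 reads in at least 1 cell, the level used below to call a gene detected in a well, as did 9716 genes in all. Cx3cr1, the fractalkine receptor, did not, with a highest value of 2 reads in 1 cell.

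Group 2 innate lymphoid cells (ILC2) were index-sorted from the pancreas of C57BL6J mice, 1 cell per well, over 4 plates with 384 wells each. RNA was read by SORT-seq, which builds on CEL-seq2 and counts the 3' ends of polyadenylated transcripts. All groups share the KIKR reporter, whose green fluorescence is switched to red by exposure to violet light; the promoter that drives it is not given in the sources used here. Plate 1, the plate used here, held 12 photoconverted (red) wells, 151 non-photoconverted (green) wells and 221 wells left empty, and 8 red and 98 green cells passed a filter of at least 500 genes and under 25% mitochondrial reads. The title of the series names fasting and migration, but the labels give no feeding state, exposed tissue, sort gate or animal for any cell, so the comparison available is red with green.

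Chemokine receptors are 7-pass membrane proteins that couple to inhibitory G proteins and turn a gradient of chemokine into directed movement and firmer integrin adhesion. Different receptors are known for different destinations: CCR9 for the small intestine, CXCR4 for bone marrow, CXCR6 for liver, lung and other tissues where lymphocytes stay resident, and CCR4 and CCR8 for skin and sites of type 2 inflammation. GPR183 (EBI2) is not a chemokine receptor but reads a gradient of oxysterols, and places innate lymphoid cells within lymphoid tissue.

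Row names of the table could be used on plate 1 alone, where rows named as mitochondrial held 5.63% of reads, against 0.0110% to 0.0531% on plates 2 to 4. Gene values are therefore values of 1 sample, with no replicate, no test and no p-value, and all intervals are exact 95% binomial (Clopper-Pearson) intervals that cover counting error of cells only. The upper limit given beside a count of 0 is not such an interval but 3 counts of the total. Plate 1 held 52614294 reads. Red cells were richer in reads of genes than green cells, with a median of 540662 against 187690 (range 56539 to 1677643 in red, 17825 to 1274117 in green), and in genes with at least 1 read, with a median of 2748.5 against 1637. Each red cell was therefore also set against the 5 green cells nearest in genes detected, which gave 29 distinct depth-matched cells. Their median was 2718.5 genes once each is counted as often as it was used. Like depth below means like numbers of genes, not of reads. Counted once each, the 29 cells had a median of 365563 reads of genes, fewer than red cells. They had a median of 1507 genes at 16 reads, against 1834.5 in red cells. The sorted cells looked like ILC2 in both colours: at least 3 of 14 ILC2-like markers were detected in 8 of 8 red and 83 of 98 green cells, and at least 3 of the 4 T cell-like markers with a row in 0 of 8 and 0 of 98. A bar of 3 is easier to reach in a list of 14 than in one of 4. At least 1 T cell-like marker was detected in 2 of 8 red and 10 of 98 green cells. At least 1 of the 3 myeloid-like markers with a row was detected in 6 of 8 and 30 of 98. For the 4 ILC3-like markers with a row these counts were 6 of 8 and 52 of 98, mostly Ltb and Kit. Of the ILC2-like markers, Gata3, Il1rl1 and Klrg1 were each detected in 8 of 8 red cells, but Rora in 2, Il17rb in 1 and Il13 in 0.

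Cxcr6 and Ccr2 were the receptors found in the largest shares of cells, in red and in green cells. Cxcr6, the receptor for the membrane-bound chemokine CXCL16 (chromosome 9, 123806475 to 123811760, plus strand, mm10), ran from 0 to 718 reads in the 8 red cells with a median of 147.5, and from 0 to 2688 with a median of 20 in green cells. It was detected in 7 of 8 red cells (47.3 to 99.7%), in 82.5% of the depth-matched green cells and in 51.0% of all 98 green cells (40.7 to 61.3%), against 1 of 221 empty wells. The red share stood 36.5 percentage points above all green cells but 5 points above the depth-matched ones, so most of the gap was absent at like numbers of genes. The size of this difference depended on the matching. It was 17.5 points when cells were matched on reads, 12.5 against the 10 nearest green cells and -12.5 against the 1 nearest. The level was lower in red cells, with a mean of 346 reads per 1000000 reads of genes (CPM) in red cells, 758 in depth-matched green cells and 475 in all green cells.

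Ccr2, the receptor for CCL2 that is best known for drawing monocytes out of bone marrow (chromosome 9, 124101950 to 124113557, plus strand), had 0 to 1309 reads in red cells with a median of 81.5, and 0 to 1267 with a median of 7 in green cells. It was detected in 6 of 8 red cells (34.9 to 96.8%), 60% of depth-matched green cells, 44.9% of all green cells (34.8 to 55.3%) and 0 of 221 empty wells. The difference from depth-matched cells was 15 percentage points at 16 reads, but -15 points with detection at 1 read and -4.64 points after each cell was drawn down to 1000 reads, so its direction depended on the threshold. Mean CPM was 360 in red cells, 487 in depth-matched and 402 in all green cells. That log2 ratio against all green cells was -0.15, and turned to 0.87 when reads were scaled to spike-ins and centred on the median of all genes. A single cell held 54.2% of the red reads.

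**Figure D1:**
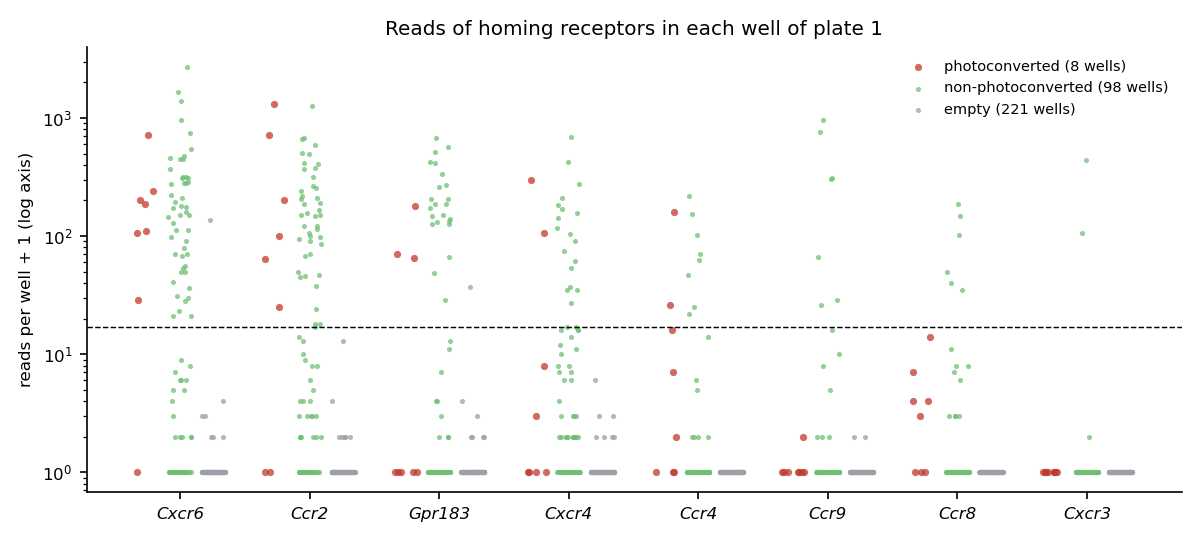
Reads of each receptor (plus 1, log axis) in each well of plate 1, with photoconverted cells in red, non-photoconverted cells in green and empty wells in grey. The dashed line marks 16 reads. Cxcr6 and Ccr2 are above it in 7 and 6 of the 8 red cells, whereas all red cells are below it for Ccr8, Ccr9 and Cxcr3.

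Cxcr4 and Gpr183 were carried by a smaller part of the cells. Cxcr4, the receptor for CXCL12 (chromosome 1, 128588199 to 128592293, minus strand), ran from 0 to 299 reads in red cells with a median of 1, and from 0 to 690 with a median of 0.5 in green cells. It was detected in 2 of 8 red cells (3.19 to 65.1%), 37.5% of depth-matched and 20.4% of all green cells (12.9 to 29.7%), and 0 of 221 empty wells. The difference from depth-matched cells was -12.5 points. It reached -37.5 points against the 1 nearest green cell of each red cell, and was 0 when cells were matched on reads instead of genes. The 2 red cells with Cxcr4 held 299 and 105 reads, and 2 further red cells held 7 and 2 reads.

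Gpr183 (chromosome 14, 121952551 to 121965195, minus strand) had 0 to 177 reads in red cells and 0 to 682 in green cells, with a median of 0 in both. It was detected in 3 of 8 red cells (8.52 to 75.5%), in 37.5% of depth-matched green cells, in 23.5% of all green cells (15.5 to 33.1%) and in 1 of 221 empty wells. Its share at 16 reads and like depth was thus equal in both colours, while its level was lower in red cells. That equality was not stable. The red share was lower under 6, higher under 2 and equal under 4 of the 12 alternative settings. With 1 red cell left out the difference ran from -14.3 to 8.57 points. Mean CPM was 68.4 in red, 175 in depth-matched and 238 in all green cells, a log2 ratio of -1.66 against all green cells after 10 CPM were added to each mean. Among carriers alone the median was 125 CPM in the 3 red and 599 CPM in the 23 green cells, which were not depth-matched. A fixed limit of 16 reads asks for a higher CPM in cells with fewer reads, so these 2 medians are not on equal terms.

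Ccr4 and Ccr8, receptors of type 2 lymphocytes for CCL17 and CCL22 and for CCL1 and CCL8, were rare. Ccr4 (chromosome 9, 114490316 to 114504916, minus strand) was detected in 2 of 8 red cells (3.19 to 65.1%), with 160 and 25 reads, and a further red cell held 15 reads, just under the threshold. It was detected in 20% of depth-matched and 8.16% of all green cells (3.59 to 15.5%), where the highest value was 218 reads, and in 0 of 221 empty wells. Mean CPM was 40.9 in red, 37.3 in depth-matched and 14.1 in all green cells. The log2 ratio against all green cells was 1.07, and -0.30 without the red cell that held 77.3% of the red reads.

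Ccr8 (chromosome 9, 120092114 to 120094906, plus strand) reached 16 reads in 0 of 8 red cells, which allows up to 37.5%, in 12.5% of depth-matched cells and in 6.12% of all green cells (2.28 to 12.9%). Red cells were not without it, however: 5 of 8 held 1 to 15 reads, with 13 as the highest, and 9 of 98 green cells did, against 0 of 221 empty wells. Counted at 1 read or more, Ccr8 was present in 62.5% of red and 30% of depth-matched cells, a difference of 32.5 points in place of -12.5. Ccr4 was present by that count in 62.5% of red cells against 35% of depth-matched ones, and Cxcr4 in 50% against 75%. Ccr8 and Ccr4 were thus at least 25 points higher, as were 8.84% of all genes, and Cxcr4 was 25 points lower, where 4.02% of all genes were that much lower.

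Ccr9, the receptor for CCL25 that directs lymphocytes to the small intestine (chromosome 9, 123678439 to 123784330, plus strand), was found in green cells and not in red ones at the threshold. The 8 red cells held 1 read of it in all. It was detected in 0 of 8 red cells, which allows up to 37.5%, in 10% of depth-matched cells and in 7.14% of all green cells (2.92 to 14.2%), and in 0 of 221 empty wells. The highest green cell had 953 reads, and 4 green cells held 93.7% of the green reads. Mean CPM was 0.219 in red cells, 55.2 in depth-matched and 66.7 in all green cells. Ccr9 was lower in red cells under 11 of the 12 alternative settings and equal under 1, by 0 to 17.5 points. With 1 red read in all, however, the red share was 0 at every threshold above 1 read. A higher red share was thus hardly possible, and the settings add no support for a difference. The 8 red cells cannot tell a share of 10% from 0. An absence from the red cells was also common among genes in general, since 36.5% of the 9716 genes reached 16 reads in 0 red cells.

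The 7 green Ccr9 carriers looked like ILC2, with 7 to 10 of the 14 ILC2-like markers. Gata3 and Klrg1 were detected in 7 of 7 and Il1rl1 in 5 of 7, but the ILC3-like marker Ltb was also detected in 5 of 7. A T cell-like marker was detected in 0 of 7 and an NK or ILC1-like marker in 1 of 7. The carriers had a median of 2633 genes, against 1611 in the 91 green cells without Ccr9, so the 2 sets are not at like depth. Itga4 and Itgb7, the chains of the gut-homing integrin α4β7, were detected in 6 and 4 of these 7 cells, and both in 3, against 36, 42 and 21 of the 91 green cells without Ccr9. Among depth-matched green cells, which are deeper than most, Itga4 was found in 65% and Itgb7 in 82.5%. In the annotation the gene Ccr9 overlaps Lztfl1 on the opposite strand, and the strand setting of the authors' counting is not given in the sources used here. Lztfl1 was detected in 5 of the 7 carriers; among the 33 green cells with most genes it was detected in 5 of 6 Ccr9 carriers and in 11 of 27 others. Its part in the Ccr9 values was not tested.

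Cxcr3, the receptor of type 1 lymphocytes for the interferon-induced chemokines CXCL9 and CXCL10 (chromosome X, 101731535 to 101734269, minus strand), was detected in 0 of 8 red cells and in 2 of 98 green cells (0.248 to 7.18%), which had 441 and 105 reads. These 2 cells carried 3 and 5 ILC2-like markers, Gata3 in 1 of them and Klrg1 in neither, and 1 carried the T cell gene Cd3g. No depth-matched cell had it. Cx3cr1 (chromosome 9, 119901616 to 120069879, minus strand) was at 0 reads in 8 of 8 red cells and reached 16 reads in 0 of 98 green cells, which allows up to 3.06%.

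**Figure D2:**
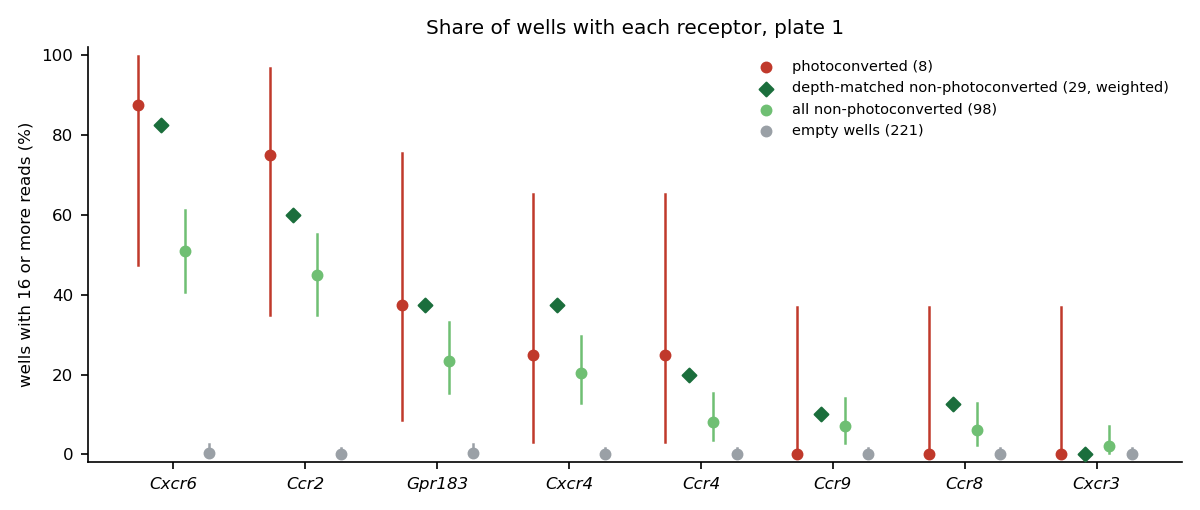
Share of wells with 16 or more reads of each receptor, in photoconverted cells (red), depth-matched non-photoconverted cells (dark green diamonds, weighted, no interval), all non-photoconverted cells (light green) and empty wells (grey), with exact 95% binomial intervals as bars. The red interval takes in the depth-matched share for all 8 receptors shown.

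At like depth, the shares of the receptors were split between the colours. Of the 8 measured, 3 had a larger share in red than in depth-matched green cells (Ccr2, Ccr4 and Cxcr6), 3 a smaller one (Ccr8, Ccr9 and Cxcr4) and 2 an equal one (Cxcr3 and Gpr183). Over all 9716 genes the split was 43.9% higher, 44.1% lower and 12.1% equal. A difference of at least 25 percentage points was used as the limit for a call. In either direction 0 of 8 receptors reached it, against 6.56% of all genes in the higher and 2.34% in the lower direction. Ccr4 (20% of depth-matched cells), Ccr8 (12.5%), Ccr9 (10%) and Cxcr3 (0%) could not fall by 25 points, however. Cxcr6, at 82.5%, could not rise by 25 points. The 0 of 8 thus does not show that the shares were equal. The median difference was 0 points over the 8 receptors and 0 over all genes.

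Levels were compared with all green cells, without depth matching. By mean CPM, 1 receptor (Ccr4) was at least 2-fold higher in red cells and 3 (Ccr9, Cxcr3 and Gpr183) at least 2-fold lower, where 12.3% and 24% of all genes were. With reads scaled to spike-ins Ccr2 and Cxcr4 turned from lower to higher in red cells. The median log2 ratio was -0.36 over the receptors and -0.30 over all genes. Against depth-matched cells 0 receptors were 2-fold higher and 3 were 2-fold lower, but not the same 3: Ccr9 (-2.67), Gpr183 (-1.23) and Cxcr6 (-1.11) were, and Cxcr3 was at 0 reads in both sets of cells. The share of all genes past 2-fold against depth-matched cells was not counted, so these 3 lower receptors have no background to stand beside. The medians of the depth-matched log2 ratios were -0.57 over the receptors and -0.26 over all genes. The log2 ratio of Cxcr3 against all green cells was -1.87, and -0.38 without the green cell with its highest CPM, and that of Gpr183 was -0.99 with spike-in scaling.

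By share of green cells the receptors could be ordered in part. Cxcr6 and Ccr2 overlapped in their intervals and stood above Gpr183 and Cxcr4, whose intervals overlapped each other. Ccr4, Ccr9, Ccr8 and Cxcr3 followed, with intervals that overlapped among themselves, and those of Ccr4 and Ccr9 also overlapped that of Cxcr4. Cxcr6 and Ccr2 also had the largest shares in red cells, with intervals that overlapped each other. The red interval of Cxcr6 began at 47.3%, above the upper limit of 37.5% for Ccr8, Ccr9 and Cxcr3, each at 0 of 8. By these limits no other pair of receptors was separated in the 8 red cells. All receptors were read in the same cells, in red and in green, and overlap of intervals does not measure a difference within cells.

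Detection followed depth for most of the receptors. When the 98 green cells were ranked by genes detected and cut into 3 bins, Cxcr6 was found in 18.8% of the shallowest bin (6 of 32, 7.21 to 36.4%), 48.5% of the middle bin and 84.8% of the deepest (28 of 33, 68.1 to 94.9%). Ccr2 was found in 31.2%, 33.3% and 69.7%, and Gpr183 in 3.12%, 30.3% and 36.4%. Ccr9 and Ccr4 were detected in 0 of 32 of the shallowest and in 6 and 7 of 33 of the deepest cells. Mean CPM of Ccr2 was 450, 293 and 463 in the same order, so its level did not follow depth as its share did. Levels of some receptors did rise at each step: Cxcr6 (211, 521 and 686), Ccr9 (2.56, 80.2 and 115) and Ccr4 (0, 7.65 and 34.3). Those of Gpr183, Cxcr4, Ccr8 and Cxcr3 did not.

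**Figure D3:**
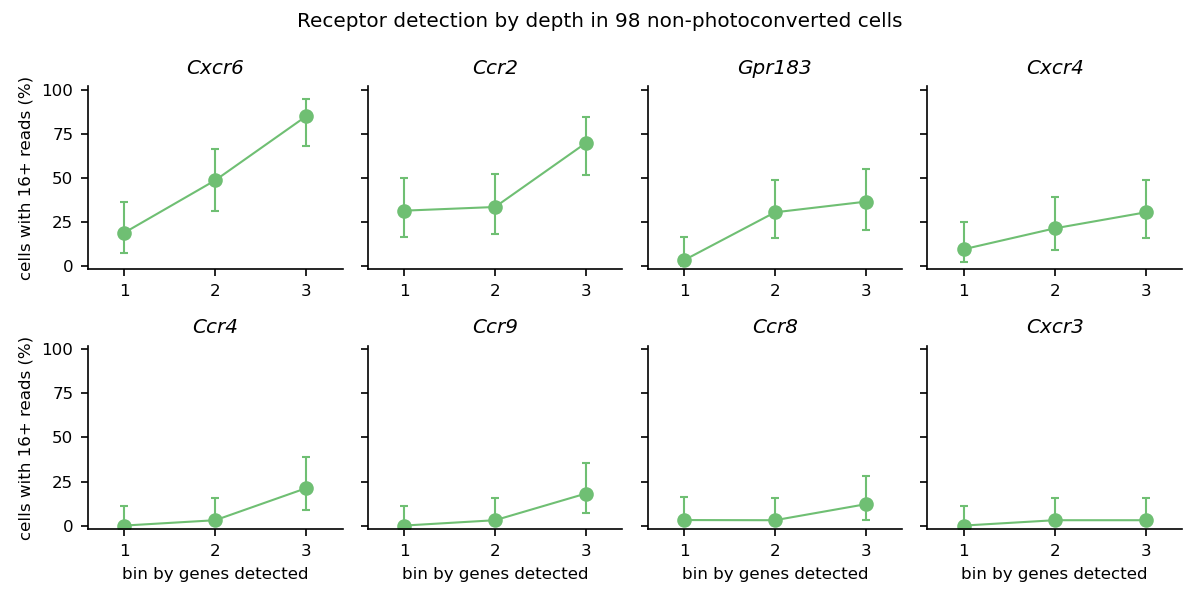
Share of the 98 non-photoconverted cells with 16 or more reads of each receptor, in 3 bins of genes detected (1 is the shallowest), with exact 95% binomial intervals. Cxcr6 goes from 18.8% to 84.8% across the bins, and the rare receptors are found mostly in the deepest.

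Some single cells carried several of these receptors at once, and others 1 or 0. Red cells held 1 to 4 of the 8 measured receptors, with a mean of 2.5, against a mean of 2.6 in depth-matched green cells and 1.63 in all green cells (range 0 to 6). None of the 8 was detected in 0 of 8 red cells, in 5% of depth-matched cells and in 21 of 98 green cells. Exactly 1 was detected in 1 of 8 red cells, in 12.5% of depth-matched cells and in 27 of 98 green cells. Of the 221 empty wells, 2 held 1 receptor each, with 135 reads of Cxcr6 and 36 of Gpr183. Ccr2 and Cxcr6 were found together in 5 of 8 red cells (62.5%), 47.5% of depth-matched and 28.6% of all green cells, and at least 1 of the pair in 8 of 8, 95% and 67.3%.

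In green cells, 28 held Ccr2 and Cxcr6, 16 Ccr2 alone, 22 Cxcr6 alone and 32 neither. The cells with both had a median of 2406.5 genes and those with neither 989.5, so the pairing moves with depth, and their CPM had a Spearman rho of 0.23 across the 98 green cells (a description, since cells of 1 plate share library and depth). Of the 7 Ccr9 carriers, 6 held Ccr2 and 6 Cxcr6. Of the 8 green Ccr4 carriers, 6 held Cxcr6, 5 Gpr183 and 4 Cxcr4. Each red cell can also be read by itself: the brightest of the 8 that passed the filter, with a red intensity of 29626 arbitrary units, held 63 reads of Ccr2 and 202 of Cxcr6, and the cell with most receptors (intensity 6812) held Ccr2, Ccr4, Cxcr4 and Gpr183 but 0 reads of Cxcr6.

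**Figure D4:**
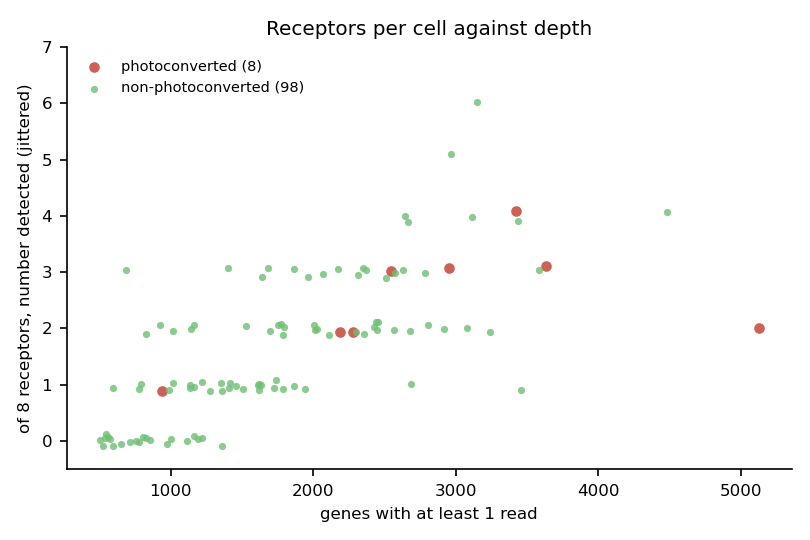
Number of the 8 measured receptors detected at 16 reads (vertical, jittered) against genes with at least 1 read (horizontal) in the 8 photoconverted (red) and 98 non-photoconverted (green) cells of plate 1. Red cells hold 1 to 4 receptors and lie among the green cells of like depth, except that the deepest red cell, with 5129 genes, lies beyond the deepest green cell at 4480.

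Of the 9 members with a row, 6 lie on chromosome 9. Ccr9 and Cxcr6 are 22 kb apart, Ccr2 lies a further 290 kb on, and Ccr8 and Cx3cr1 are 22 kb apart, by GENCODE M21 on mm10. On this stretch Cxcr6 was found in 51.0%, Ccr2 in 44.9% and Ccr9 in 7.14% of green cells. Cxcr6 and Gpr183 overlap Fyco1 and Ubac2, which are on the opposite strand. These were detected in 3 of 50 and 4 of 23 green carriers, and in 2 of 7 and 0 of 3 red carriers. Among the 33 green cells with most genes, Fyco1 was detected in 3 of 28 Cxcr6 carriers and 2 of 5 others. Ubac2 was detected there in 3 of 12 Gpr183 carriers and 5 of 21 others. Their part in the values of Cxcr6 and Gpr183 was not tested.

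Other chemokine receptors were scarce. Of 14 listed, 5 had a row and 3 were measured, 3 of them higher in red than in depth-matched cells, with a median difference of 7.5 points. Ccrl2, an atypical receptor that binds chemerin, was detected in 2 of 8 red cells, 17.5% of depth-matched and 9.18% of all green cells. Cxcr2, a receptor best known on neutrophils, was found in 1 of 8, 10% and 5.10%.

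Receptors for lipids and other attractants were also examined. Of 19 listed, 12 had a row and 10 were measured, of which 6 were higher in red than in depth-matched cells, 2 lower and 2 equal, with a median difference of 5 points and 0 past 25. Gpr65, a proton-sensing receptor, was detected in 6 of 8 red cells, 55% of depth-matched and 43.9% of all green cells. Ltb4r1, the leukotriene B4 receptor, was detected in 5 of 8 red cells, 62.5% of depth-matched and 34.7% of all green cells, and Gpr132 in 5 of 8, 55% and 34.7%. S1pr1, the receptor by which lymphocytes leave tissue towards sphingosine-1-phosphate in lymph, had a row but reached 16 reads in no red or green cell. It was named after its values were seen.

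Machinery below the receptors was detected in both colours. Of 33 measured signalling genes, 16 were higher in red than in depth-matched cells, 15 lower and 2 equal, with a median difference of 0. Coro1a, an actin regulator of lymphocyte movement, was detected in 7 of 8 red cells, 90% of depth-matched and 74.5% of all green cells. Rac2 and Cdc42, GTPases of the leading edge, were detected in 7 of 8 red cells each, against 90% and 85% of depth-matched cells. Past 25 points were the GTPases Rap1a (5 of 8 red cells against 30% of depth-matched), Rhoa (7 of 8 against 57.5%) and Rap1b (7 of 8 against 62.5%) on the higher side, and Pik3r5, a regulatory subunit of PI3-kinase gamma, on the lower (0 of 8 against 25%). These 3 and 1 of 33 genes stand beside 6.56% and 2.34% of all genes, which is close to the background.

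Of 13 measured adhesion partners, 5 were higher in red cells, 6 lower and 2 equal, with a median difference of 0. Cd44, a receptor for hyaluronan, was past 25 points, at 6 of 8 red cells against 47.5% of depth-matched cells. That is 1 of 13 genes, where 6.56% of all genes were past the same limit. Selplg, the selectin ligand PSGL-1, and Cd69, which holds lymphocytes in tissue, were each detected in 7 of 8 red and 80% of depth-matched cells, and Itgb7 in 6 of 8 and 82.5%. Few ligands of the members were detected: of 19 listed genes for ligands and ligand enzymes, 4 had a row and 2 were measured. Cxcl10, a ligand of CXCR3, was detected in 0 of 8 red, 17.5% of depth-matched and 7.14% of all green cells, and Ccl1, a ligand of CCR8, in 1 of 8, 0% and 1.02%.

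For the 4 receptors found in at least 20% of green cells, the genes with the most similar CPM across the 98 green cells were looked up among 756 genes found in at least 25% of them. Cyba, a subunit of the phagocyte NADPH oxidase, was nearest to Cxcr6 (Spearman rho 0.56, both detected in 28 cells), ahead of Rbpj (0.43) and Psap (0.41). For comparison the median rho of all candidates with Cxcr6 was 0.14. Lbr (0.43), Ahnak (0.40) and Psmb1 (0.39) were nearest to Ccr2, P2ry10 (0.39), Mbd2 (0.38) and Ldha (0.36) to Cxcr4, and Cox5a (0.42), Arhgef6 (0.42) and Ppp1cb (0.41) to Gpr183. Apart from Cyba, the values are weak for sparse counts, and all are the highest of many. None was adjusted for depth, and mean CPM of Cxcr6 itself rose over the 3 bins of genes detected, from 211 to 521 and 686.

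**Figure D5:**
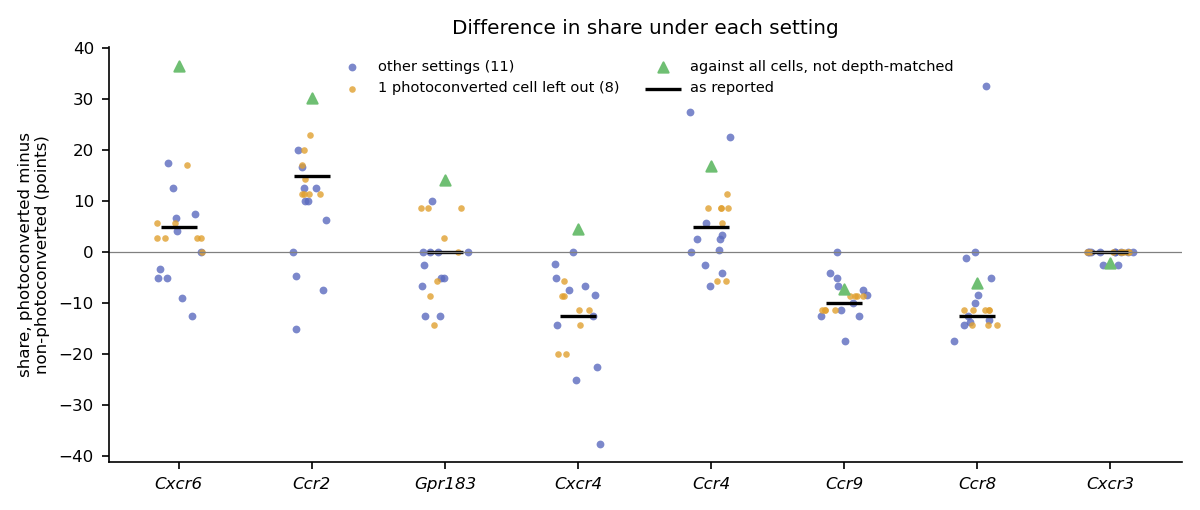
Difference in the share of cells with each receptor, photoconverted minus non-photoconverted, in percentage points. The black bar is the value as reported, blue points are other settings, yellow points leave out 1 photoconverted cell each, and the green triangle is the comparison with all non-photoconverted cells without depth matching. Ccr9 is at or below 0 throughout, whereas Ccr2, Ccr4, Cxcr6, Cxcr4, Ccr8 and Gpr183 have points on both sides of 0.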

How the data were processed

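Single-cell SORT-seq libraries of 4 plates were examined. The authors deposited raw read counts per gene row and well (reads, not molecular identifiers) and a sort record with each well's class and red fluorescence intensity, in arbitrary units per the file headers. STAR, STARsolo and edgeR and the build mm10 are named in the submitters' processing notes, without versions or roles. Of 1536 wells, 0 were named more than once. A gene was detected in a well at 16 reads or more. Spike-in rows, 43.2% of plate 1 reads, were left out of all totals; CPM is reads per 1000000 reads of genes. Doublets were not called. Draw-down gave the exact expected share of cells with a read among 1000; 0 cells fell below. PCR reads are not independent molecules, so intervals cover counting error of cells only. Each plate is 1 sample and the labels name no animals. The members and lists were chosen with earlier results of these data known. All members were named; of each list, the 3 genes found in most green cells and those past 25 points; and the 3 genes most like each frequent member, leaving out ribosomal protein genes, mitochondrial rows, numbered gene models and pseudogenes. A gene of these lists is not reported here. Alternatives changed the read threshold, cell filter, matching, depth, scaling and added CPM, and left out each red cell. The share and draw-down code was tested on simulated data. Python 3.11.15, numpy 2.4.6, pandas 2.3.3, scipy 1.17.1 and matplotlib 3.10.9 were used.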

Additional observations from a re-analysis of the deposited data

How the results depend on the processing

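The 8 red cells of 1 plate give wide intervals, and the cause of the shifts below was not tested. As reported, 3 receptors were higher, 3 lower and 2 equal in red against depth-matched cells. Without depth matching the counts were 5, 3 and 0. Against the 1 nearest green cell they were 0, 3 and 5, and against the 10 nearest 3, 4 and 1. With detection at 1 read or at 4 reads they were 2, 5 and 1, and at 64 reads 1, 5 and 2. Drawn down to 1000 reads they were 1, 6 and 1. Matching on reads, or no filter on cells, gave 3, 4 and 1. Without the 2 red cells of lowest fluorescence (a setting added after seeing the data, as were matched cells used once and levels without the highest green cell) they were 2, 5 and 1. Leaving out 1 red cell at a time gave 2 to 4 higher, 3 to 5 lower and 1 to 3 equal. The difference in receptors per cell was -0.10 as reported, -0.23 to 0 with 1 red cell left out, and from -0.63 (1 nearest) to 0.87 (not matched) otherwise. Mean CPM was at least 2-fold higher for 1 receptor and lower for 3. The higher count was 0 with 100 CPM added, against depth-matched cells and with spike-in scaling (which moved the median of all genes by 0.67 log2 and was centred), and 0 to 1 with 1 red cell left out. The lower count was 1 with 100 CPM added, 2 without the highest green cell, and 3 with any 1 red cell left out. Ccr4 reversed, to a log2 ratio of -0.30, without red cell 1 (-0.30 to 1.23 over the red cells left out). No paired analysis was possible because the 4 plates form 1 group and gene names hold on 1 of them.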

Other observations

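Wells that failed the cell filter held few of these receptors. Among 4 red wells below the filter, Cxcr6 reached 16 reads in 1 and the other receptors in 0. Among 53 green wells below it, Ccr2, Cxcr6 and Gpr183 reached 16 reads in 1 well each and the other 5 measured receptors in 0. These wells entered no comparison except the setting without a filter on cells.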
